A study of Arabidopsis thaliana with 24 samples.

Results

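Transcripts of 10 core circadian clock genes were followed in root tissue of the Arabidopsis thaliana accession Col-0. They were the MYB genes LHY (AT1G01060), CCA1 (AT2G46830) and RVE8 (AT3G09600), the pseudo-response regulator genes PRR9 (AT2G46790), PRR7 (AT5G02810), PRR5 (AT5G24470) and TOC1 (AT5G61380), GIGANTEA (GI, AT1G22770), and the evening complex genes LUX (AT3G46640) and ELF4 (AT2G40080). They were found by locus identifier among 40246 features of the deposited table, and each had 1 entry. Of the 10, 9 were among the 18948 genes with a mean normalized count of at least 5 that were tested, and PRR9 was listed at 0 in every library. Seedlings 3 days old were moved to medium with both 0.8 nM brassinolide and 4 µM L-kynurenine (BL+Kyn), with kynurenine alone (Kyn), with brassinolide alone (BL) or with neither (mock). Brassinolide is a brassinosteroid hormone, and kynurenine blocks the aminotransferase step of auxin synthesis. Roots, cut a short way behind the tip, were harvested 12, 24 or 48 h after the move, and each of the 12 groups had 2 libraries, which the series calls biological replicates. All groups were of the same accession, with no mutant or transgene. The light regime and the clock hour of the move and of the harvests are not given in the sources used here. The harvests are therefore hours after transfer, and the 24 and 48 h harvests lie whole days after the move while the 12 h harvest does not.

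The plant clock is a network of transcription factors that repress and activate each other over the day. CCA1 and LHY, MYB factors that peak at dawn, repress evening genes, while RVE8, a related MYB factor, activates them. The PRR proteins repress CCA1 and LHY in turn through the day, TOC1 does so in the evening, and the evening complex of ELF3, ELF4 and LUX represses day genes at night. GI stabilises the F-box photoreceptor ZTL, which takes TOC1 protein to degradation. Roots have a clock of their own that is coupled to the shoot.

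Depth ran from 6.32 to 31.4 mega-reads per library, with a median of 9.73 mega-reads. All 11 root marker genes were above 0 in all 24 libraries. The replicate 2 libraries of Kyn and of BL at 12 h stood apart in transcripts of green tissue. Summed over 9 light-harvesting genes, they held normalized counts of 8202 and 14250, against 476 to 1884 in the other 22 libraries. Over 7 carbon-fixation genes they held 111843 and 89113, against 1095 to 5983. Fewer cells of a type and less RNA per cell cannot be told apart in such bulk samples.

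The bases just upstream of LHY, CCA1, PRR7 and TOC1 are shown first, as 4 of the 5 clock genes called in BL+Kyn at 48 h. Each line is the 250 bases before the gene start in RefSeq's TAIR10.1 annotation, 5′ to 3′ on the gene's strand. LHY lies at chr1:37872-38121 on the minus strand, CCA1 at chr2:19245341-19245590 on the plus strand, PRR7 at chr5:642031-642280 on the minus strand and TOC1 at chr5:24674713-24674962 on the plus strand. Capitals mark the motif matches on either strand.
LHY: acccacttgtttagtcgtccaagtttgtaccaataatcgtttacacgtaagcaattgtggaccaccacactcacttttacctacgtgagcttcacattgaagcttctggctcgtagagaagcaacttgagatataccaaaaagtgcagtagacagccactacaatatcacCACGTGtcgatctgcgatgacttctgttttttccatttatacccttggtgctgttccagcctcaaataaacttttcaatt
CCA1: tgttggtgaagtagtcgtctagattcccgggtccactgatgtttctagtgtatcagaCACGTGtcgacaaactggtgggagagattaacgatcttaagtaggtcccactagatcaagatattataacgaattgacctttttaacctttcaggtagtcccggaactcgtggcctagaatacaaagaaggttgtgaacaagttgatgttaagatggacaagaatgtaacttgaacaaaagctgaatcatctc
PRR7: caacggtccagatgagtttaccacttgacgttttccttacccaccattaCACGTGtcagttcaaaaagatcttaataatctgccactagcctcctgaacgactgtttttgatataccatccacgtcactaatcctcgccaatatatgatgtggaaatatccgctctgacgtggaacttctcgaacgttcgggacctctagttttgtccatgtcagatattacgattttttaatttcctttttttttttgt
TOC1: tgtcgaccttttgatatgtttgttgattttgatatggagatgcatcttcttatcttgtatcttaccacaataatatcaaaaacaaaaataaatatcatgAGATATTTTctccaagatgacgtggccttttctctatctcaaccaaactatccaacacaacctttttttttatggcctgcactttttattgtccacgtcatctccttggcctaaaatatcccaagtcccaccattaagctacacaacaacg
The capitals in LHY, CCA1 and PRR7 are the G-box CACGTG, which bZIP and bHLH factors bind. It began 80 bases before the start in LHY, 193 in CCA1 and 201 in PRR7, and 6.49% of 27437 promoters of this length held it. In TOC1 the capitals are the evening element AAAATATCT, the site through which CCA1 and LHY repress evening genes, on the opposite strand from 151 to 143 bases before the start. It stood in 2.36% of promoters, and PRR5 and LUX also held it. Of the forms of the LUX binding site, GATACG was in 4.60% of promoters and matched in none of those reported here, and GATTCG was in 7.88% and matched in PRR9. AAAAATCT, the CCA1-binding site, was in 6.69% and matched in PRR5. The PRR5 window, chr5:8358547-8358796 on the minus strand, lies within the deposited PRR5 gene at 8355951 to 8358873. Both PRR5 matches are thus upstream of the RefSeq start but not of the deposited one. PRR9 had 2 G-boxes and LUX 1, while RVE8 and GI held none of these letters in this window. No matches overlapped.

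**Figure D1:**
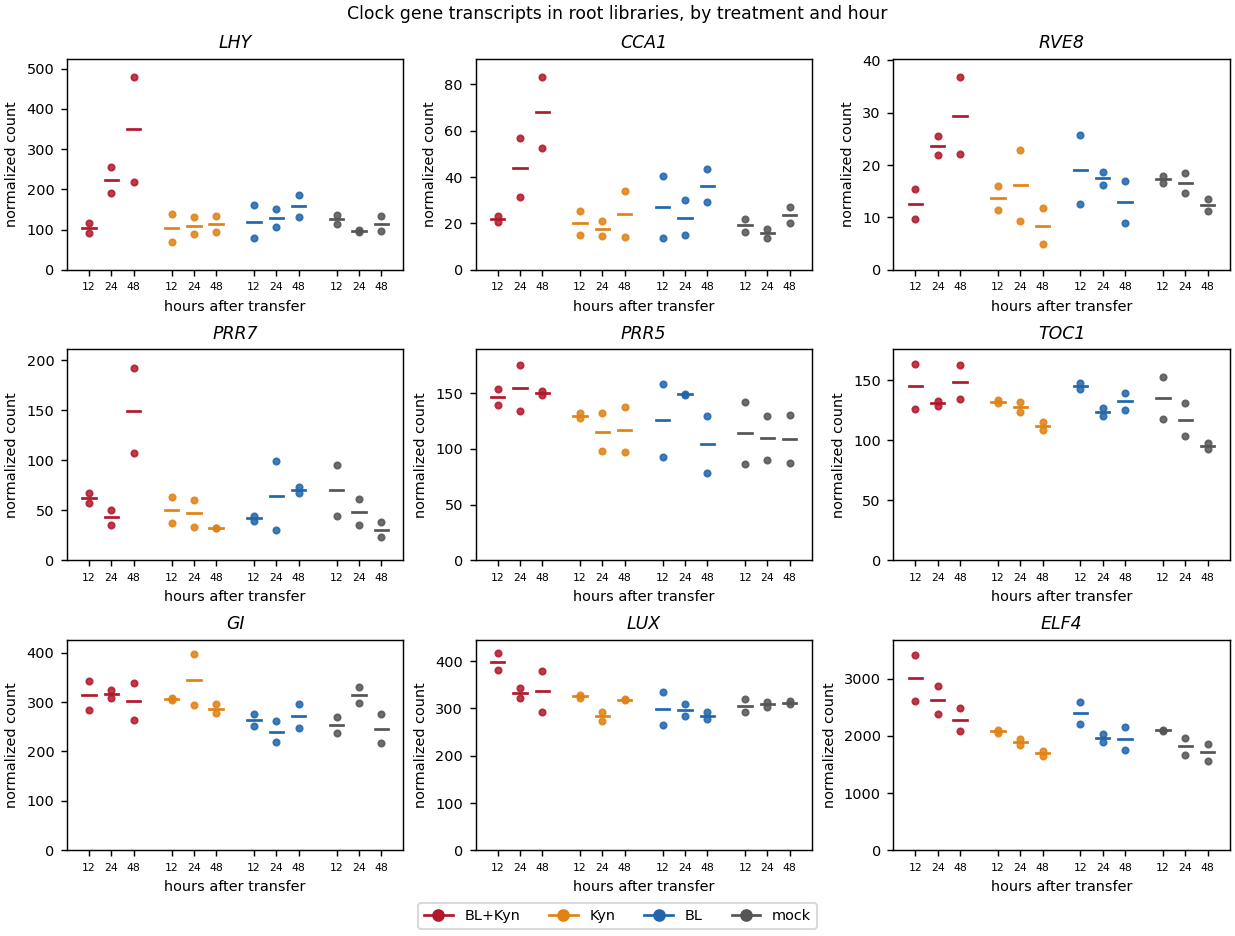
Normalized count (vertical axis, from 0) of the 9 clock genes with reads, by hours after transfer (horizontal axis) within BL+Kyn, Kyn, BL and mock. Points are libraries, 2 per group, and lines are group means. LHY, CCA1, RVE8, PRR7 and TOC1 reach their highest mean in BL+Kyn at 48 h. LHY libraries stand at 478 and 219 there against 95.8 and 134 in mock, while GI and LUX stay within a narrow band.

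Across the 12 groups the clock genes differed in the ratio of the highest to the lowest group mean, which few reads widen by counting error. The highest group mean was 4.90 times the lowest for PRR7, 4.33 for CCA1, 3.63 for LHY and 3.55 for RVE8, and all 4 had their highest mean in BL+Kyn at 48 h. The same ratio was 1.78 for ELF4, 1.56 for TOC1, 1.49 for PRR5, 1.44 for GI and 1.41 for LUX. TOC1 also had its highest mean in BL+Kyn at 48 h. RVE8 was called in no comparison. These are levels of the same gene in different groups, and levels of different genes were not compared. Reads per library were 67 to 443 for LHY, 11 to 77 for CCA1, 3 to 39 for RVE8 and 20 to 178 for PRR7.

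Harvest time was compared first, as the mean of 24 and 48 h against 12 h on the log2(normalized count + 1) scale, with limma and Benjamini-Hochberg adjustment over all genes tested. Averaged over the 4 treatments, 1 of the 9 clock genes changed, ELF4, against 8.18% of all genes tested. That share was 1549 genes, and 846 to 3007 with 1 library left out, moving by over 1.5 times without replicate 1 of mock at 12 h or of BL+Kyn at 48 h and without replicate 2 of Kyn or of BL+Kyn at 12 h. The median of the 9 was -0.04 and that of all genes -0.01. ELF4, a small protein of the evening complex, had normalized counts from 1557 to 2871 with a median of 1913 in the 16 libraries of 24 and 48 h, against 2048 to 3415 with a median of 2156 in the 8 libraries of 12 h. Within Kyn, BL and mock every later library lay below both 12 h libraries, and in BL+Kyn the later libraries overlapped with 12 h. Overlap of libraries, here and below, is a description of few libraries per group. It was read for the listed genes only, so no share of all genes stands beside it. ELF4 fell by 0.26 on the log2 scale (SE 0.06, limma adjusted p = 0.0150), that is to 0.83 of its 12 h level. Its difference was -0.29 in BL+Kyn, -0.21 in Kyn, -0.29 in BL and -0.25 in mock. Without BL+Kyn 12 h replicate 2 the value was -0.22 with an adjusted p of 0.0668.

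LHY, the dawn-peaking MYB gene (chromosome 1, 33379 to 37757), was the only clock gene called for harvest time within a single treatment. In BL+Kyn it had 91.0 and 115 normalized counts at 12 h, 190 and 255 at 24 h, and 478 and 219 at 48 h. All 4 later libraries lay above both 12 h libraries. LHY rose by 1.37 on the log2 scale in BL+Kyn (SE 0.33, limma adjusted p = 0.0242), a 2.59-fold rise with a 95% interval for the log2 value of 0.67 to 2.07. It was 1 of 9 clock genes called there, against 4.39% of all genes tested. These were 832 genes, and 202 to 1321 with 1 library left out, moving by over 1.5 times without either BL+Kyn library of 12 h, replicate 2 of 24 h or replicate 1 of 48 h. In Kyn it had 70.0 and 138 at 12 h, 130 and 89.6 at 24 h, and 95.2 and 133 at 48 h. BL libraries held 78.0 and 160, 105 and 150, and 186 and 132 at these times. Mock libraries held 114 and 137, 98.2 and 94.0, and 95.8 and 134. In these 3 treatments the later libraries overlapped with 12 h, with log2 differences of 0.16, 0.33 and -0.26. The higher of the 12 h libraries in Kyn and in BL was the one with high green-tissue transcripts. Without these 2 libraries LHY was called averaged over treatments (0.65, limma adjusted p = 0.0269), and with them its average was 0.40 (adjusted p = 0.153). The LHY difference in BL+Kyn exceeded that in mock by 1.64 (95% interval 0.64 to 2.63). The moderated F test of whether the time difference was the same in the 4 treatments gave LHY an unadjusted p of 0.0180 and an adjusted p of 0.373, so the rise was not shown to be particular to BL+Kyn. That F test was called for 0 of 9 clock genes and for 0.211% of all genes. The call in BL+Kyn ended without BL+Kyn 12 h replicate 1 (1.20, adjusted p = 0.208), without BL+Kyn 12 h replicate 2 (1.54, adjusted p = 0.125) and without BL+Kyn 24 h replicate 2 (1.27, adjusted p = 0.0853).

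CCA1, the partner of LHY (chromosome 2, 19245672 to 19248909), had a time difference of the same sign in BL+Kyn that did not pass adjustment. Its normalized counts there were 20.7 and 23.1 at 12 h, 31.5 and 56.7 at 24 h, and 83.1 and 52.7 at 48 h. Each of the 4 later libraries was above both 12 h libraries, as for LHY. The log2 difference was 1.24 (SE 0.44, limma adjusted p = 0.137). RVE8, also without overlap between later and 12 h libraries, had a difference of 1.03 (SE 0.44, limma adjusted p = 0.232). Its libraries held 9.65 and 15.4 at 12 h, 21.9 and 25.5 at 24 h, and 36.7 and 22.2 at 48 h. LUX and ELF4 had limma unadjusted p values of 0.0480 and 0.0334 in BL+Kyn with differences of -0.26 and -0.29. In that treatment 5 of 9 clock genes had an unadjusted p under 0.05. Here and below, unadjusted p values were counted for the clock genes only, so no share of all genes stands beside these counts.

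In Kyn, BL and mock 0 of 9 clock genes were called for harvest time by limma, edgeR or DESeq2. The share of all genes called by limma was 0.153% in Kyn, 0.0844% in BL and 0.401% in mock. At an unadjusted p under 0.05 there were 0 clock genes in Kyn, 1 in BL (ELF4, -0.29) and 1 in mock (TOC1, -0.35, SE 0.16). The intervals left room for sizeable differences in the genes of low level. For PRR7 in mock the difference was -0.80 with a 95% interval of -1.68 to 0.09. For GI, of higher level, the mock interval was -0.19 to 0.45 around 0.13, and for LUX it was -0.23 to 0.28 around 0.02. Averaged over treatments, the 48 h harvest differed from the 24 h harvest for 0 of 9 clock genes by limma, edgeR and DESeq2, against 1.20% of all genes by limma, and 1 clock gene had an unadjusted p under 0.05 (CCA1, 0.55).

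**Figure D2:**
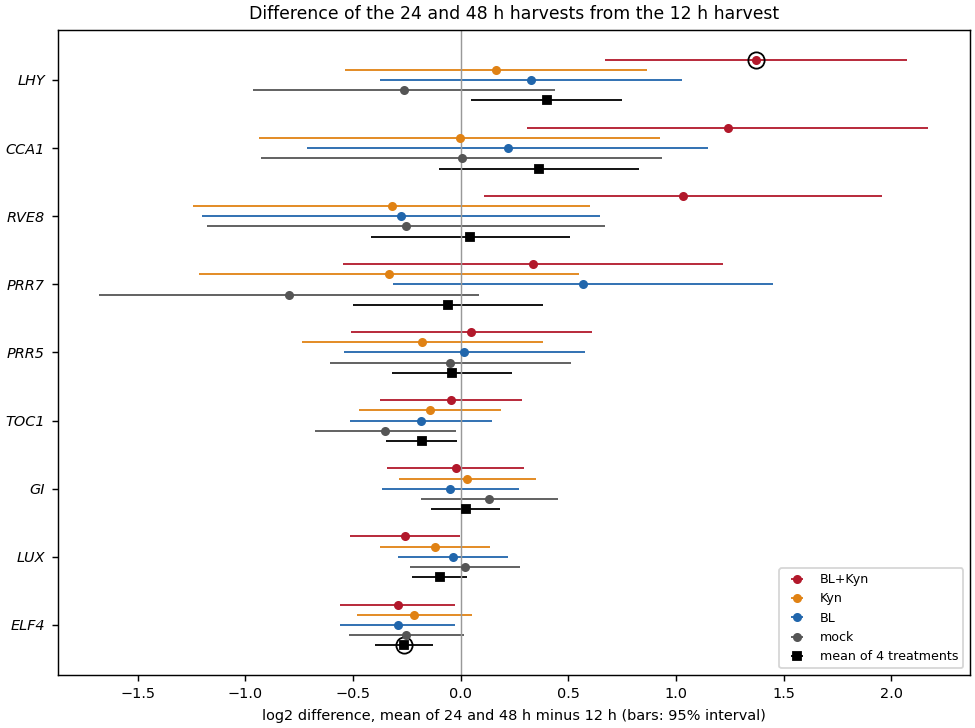
Log2 difference of the mean of 24 and 48 h from 12 h (horizontal axis) for 9 clock genes (rows), by treatment and averaged over the 4 treatments. Bars are 95% intervals, and circles mark an adjusted p under 0.05. LHY in BL+Kyn (1.37) and the average for ELF4 (-0.26) are circled, and most other intervals include 0.

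Treatments were then compared with mock at the same hour. The 3 treatments share the mock libraries, so their values are given side by side. Averaged over the 3 harvests, the fitted difference of BL+Kyn from mock was above 0 for 9 of 9 tested clock genes and for 9451 of the 18948 genes tested. Of the 9, 5 were called, against 36.3% of all genes, and LHY, CCA1, PRR5, TOC1 and ELF4 were each higher. The median was 0.46, against -0.00144 for all genes. At single harvests 0 of 9 were called at 12 h (5.02% of all genes), 2 at 24 h (18.2%) and 5 at 48 h (23.4%). These shares of all genes moved when single libraries were left out, which leaves a group of 1 and widens its error. With 1 library left out at a time, 313 to 1601 genes were called at 12 h (952 with every library), 1059 to 4426 at 24 h (3457) and 2222 to 5848 at 48 h (4435). Moves of over 1.5 times came at 12 h without any BL+Kyn or mock library of 12 h or any BL+Kyn library of 48 h, at 24 h without either mock library or BL+Kyn replicate 2, and at 48 h without either mock library or BL+Kyn replicate 1. At 12 h, 2 clock genes had an unadjusted p under 0.05, a count with no share of all genes beside it. There edgeR and DESeq2 each called 1, ELF4.

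Among the morning MYB genes, LHY in BL+Kyn was 1.19 higher than mock on the log2 scale at 24 h (SE 0.39, limma adjusted p = 0.0388) and 1.51 higher at 48 h (SE 0.39, limma adjusted p = 0.00846), with a value of -0.29 at 12 h. The library values above show no overlap with mock at 24 and 48 h. Averaged over harvests it rose by 0.80 (SE 0.22, limma adjusted p = 0.00851), and 4 of 6 BL+Kyn libraries lay above the mock mean of their hour. CCA1 had mock levels of 21.9 and 16.5 at 12 h, 17.8 and 13.6 at 24 h, and 20.1 and 27.2 at 48 h, and its BL+Kyn libraries did not overlap with these at 24 or 48 h. It rose by 1.47 at 48 h (SE 0.51, limma adjusted p = 0.0454) and by 1.01 averaged (SE 0.30, limma adjusted p = 0.0117), with 6 of 6 BL+Kyn libraries above the mock mean of their hour. At 24 h its difference was 1.39 with a limma adjusted p of 0.0674. RVE8 had 36.7 and 22.2 normalized counts in BL+Kyn at 48 h, against 11.1 and 13.6 in mock. The groups did not overlap, a description of 2 libraries against 2 with no share of all genes beside it. Both BL+Kyn libraries also lay above mock at 24 h. At 12 h both lay below mock, with 9.65 and 15.4 against 18.0 and 16.5. The RVE8 difference of 1.15 at 48 h (SE 0.51) had a limma adjusted p of 0.1102 and was not called.

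PRR7, a day-phase repressor of CCA1 and LHY (chromosome 5, 637897 to 641977), had the widest difference of the clock genes at a single harvest. At 48 h it had 192 and 107 normalized counts in BL+Kyn, 31.7 and 32.4 in Kyn, 67.2 and 73.5 in BL, and 38.4 and 22.6 in mock. Both BL+Kyn libraries lay above all others of that hour, and both BL libraries lay above both mock libraries. PRR7 rose by 2.24 in BL+Kyn at 48 h (SE 0.49, limma adjusted p = 0.00281), 4.73-fold, and its values at 12 and 24 h were -0.08 and -0.13. Averaged over harvests the difference was 0.68 (limma adjusted p = 0.0663). In BL at 48 h it was 1.22 (SE 0.49) with an unadjusted p of 0.0212 and an adjusted p of 0.464.

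TOC1, the evening repressor of CCA1 and LHY (chromosome 5, 24675064 to 24678550), had 163 and 135 normalized counts in BL+Kyn at 48 h, 115 and 108 in Kyn, 126 and 139 in BL, and 97.5 and 92.8 in mock. Every library of the 3 treatments was above both mock libraries. It rose by 0.63 in BL+Kyn at 48 h (SE 0.18, limma adjusted p = 0.0163) and by 0.30 averaged (SE 0.10, limma adjusted p = 0.0314). At 48 h its values were 0.23 in Kyn and 0.47 in BL, with adjusted p values of 0.889 and 0.438. PRR5, a repressor that acts between PRR7 and TOC1 in the day, ran from 134 to 176 with a median of 150 in the 6 BL+Kyn libraries, against 86.4 to 143 with a median of 109.88 in the 6 mock libraries. All 6 BL+Kyn libraries were above the mock mean of their hour. It rose by 0.46 averaged (SE 0.18, limma adjusted p = 0.0483) and was not called at a single harvest. For PRR9, the earliest of the PRR series, 0 reads were counted in each of the 24 libraries. A count of 0 allows up to 3 reads per library, which is a normalized count of 1.13 to 5.65 depending on depth, and covers counting error only. The PRR9 entry is named for 1 transcript model (AT2G46790.2), and 3442 of 6063 features with such a suffix (56.8%) had no read in any library, against 13446 of all 40246 features (33.4%). LHY, CCA1 and RVE8 also have entries of this kind, with reads. Why PRR9 had no reads was not tested.

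GI had 265 to 343 normalized counts with a median of 316 in BL+Kyn, 277 to 397 with a median of 301 in Kyn, 219.86 to 296 with a median of 256 in BL, and 218 to 331 with a median of 273 in mock. With the harvests pooled the 4 treatments overlapped, and no comparison called GI. Within an hour, both libraries lay above mock in BL+Kyn at 12 h and in Kyn at 12 and 48 h. Both lay below mock in BL at 24 h, and the remaining comparisons with mock at the same hour overlapped. Averaged over harvests the GI difference from mock was 0.20 in BL+Kyn (95% interval -0.01 to 0.41), 0.21 in Kyn (limma unadjusted p = 0.0542) and -0.06 in BL.

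ELF4 rose in BL+Kyn at 24 and 48 h and on average. Its normalized counts in BL+Kyn were 2611 and 3415 at 12 h, 2383 and 2871 at 24 h, and 2481 and 2082 at 48 h. Mock libraries held 2082 and 2108, 1674 and 1959.8, and 1557 and 1866 at these hours. The groups did not overlap at any of the 3 harvests. The difference was 0.51 at 12 h (limma adjusted p = 0.0512), 0.53 at 24 h (SE 0.15, limma adjusted p = 0.0173) and 0.42 at 48 h (SE 0.15, limma adjusted p = 0.0477). Averaged over harvests ELF4 rose by 0.49 (SE 0.08, limma adjusted p = 0.000217), a 1.40-fold rise, and it is the clock gene with the smallest p there. The difference with harvest time in BL+Kyn minus that in mock was -0.04 (95% interval -0.42 to 0.34). LUX, the DNA-binding subunit of the evening complex, had 380.4 and 417 normalized counts in BL+Kyn at 12 h, against 293 and 319 in mock. The groups did not overlap there, and the difference of 0.38 (SE 0.14) had a limma adjusted p of 0.139. Averaged, LUX had a difference of 0.19 with an adjusted p of 0.0695.

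Calls at single harvests rest on 2 libraries per group. A fit without 1 of them leaves a group of 1, so its error widens whichever library is dropped. A call that ends in such a fit thus need not lean on that library, and log2 values are given instead. Without BL+Kyn 48 h replicate 1, the 48 h value was 0.95 for LHY, 1.14 for CCA1, 0.50 for TOC1 and 0.29 for ELF4. PRR7 had 1.82 in that fit. Without mock 48 h replicate 1 the value was 1.27 for LHY, 1.255 for CCA1, 0.67 for TOC1 and 0.28 for ELF4. Without mock 48 h replicate 2 it was 1.675 for CCA1 and 0.60 for TOC1. At 24 h, without BL+Kyn 24 h replicate 2, LHY had 0.98 and ELF4 0.40. Without mock 24 h replicate 1, LHY had 1.22 and ELF4 0.42. LHY had 1.16 without mock 24 h replicate 2 and 1.40 without BL+Kyn 24 h replicate 1. The calls named in these fits ended, apart from that of PRR7. Libraries outside the comparison share the estimate of spread. Leaving 1 of them out kept the 48 h values of CCA1 and ELF4, but their calls ended in some such fits. Of the averaged calls, those of LHY, CCA1 and ELF4 held without each library in turn, with adjusted p values of up to 0.0363, 0.0455 and 0.00133. The averaged TOC1 call ended without BL+Kyn 12 h replicate 2 (0.114), BL+Kyn 24 h replicates 1 (0.0615) or 2 (0.0533), BL+Kyn 48 h replicate 1 (0.0896), mock 12 h replicate 2 (0.107), mock 24 h replicate 1 (0.106) or mock 48 h replicate 2 (0.0681). The averaged PRR5 call ended without any BL+Kyn library except 24 h replicate 1 (0.0592 to 0.131), without mock 12 h replicate 2 (0.165), mock 24 h replicate 1 (0.144) or mock 48 h replicate 1 (0.148), and without single libraries of BL at 24 h and of Kyn at 12 and 24 h (0.0507 to 0.0578). BL+Kyn 48 h replicates 1 and 2 held light-harvesting sums of 1884 and 1005 and carbon-fixation sums of 5479 and 4468, against 504 and 997 and 1770 and 4202 in mock at 48 h. The part of green tissue in these values was not tested. Root markers were called in both directions. Averaged over harvests in BL+Kyn, 3 of 11 rose and 4 fell. Those that rose were CASP1, CASP2 and MYB36, genes of the Casparian strip of the endodermis (0.70, 0.49 and 0.81), and those that fell were the root meristem factors PLT1 and PLT2 (-0.64 and -1.49), SHR, a factor of radial patterning (-0.21), and COBL9, a root hair gene (-1.15). At 48 h, 2 rose and 2 fell. MYB36 stood at 420.0 and 322 in BL+Kyn, against 217 and 195 in mock, and CASP1 at 7761 and 4535, against 4057 and 3579. PLT2 stood at 28.1 and 29.1 in BL+Kyn, against 101 and 106 in mock, and COBL9 at 199 and 477, against 1681 and 1460. The groups did not overlap for any of these 4 genes. The sum over the 11 markers was 11378 to 17750 in BL+Kyn at 48 h and 11318 to 12373 in mock, and no marker was at 0. The part of these markers in the clock gene values was not tested.

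In the authors' deposited table of each treatment against control, LHY had a log2 fold change of 0.87 in BL+Kyn at 24 h (adjusted p = 0.0160) and 1.22 at 48 h (adjusted p = 0.000229). The authors' deposited table gave PRR7 1.39 at 48 h (adjusted p = 0.000134), CCA1 0.98 (adjusted p = 0.0122), TOC1 0.57 (adjusted p = 0.0281) and ELF4 0.40 (adjusted p = 0.0296). In the authors' deposited table ELF4 also passed 0.05 at 12 h (0.49, adjusted p = 0.0159) and at 24 h (0.50, adjusted p = 0.00474). That table rests on the same libraries and is no independent support. Its fold changes here are each smaller than the differences given above.

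Kyn and BL alone called 0 of 9 clock genes at each harvest and averaged, by limma, edgeR and DESeq2. In Kyn limma called 1.28% of all genes at 12 h, 0.871% at 24 h, 1.17% at 48 h and 4.90% averaged. In BL it called 0.0950%, 0.106%, 0.216% and 1.88%. With so few genes called in all, 0 of 9 is near the background. No clock gene had an unadjusted p under 0.05 in Kyn, and in BL there were 0 at 12 h, 1 at 24 h (GI, -0.39), 2 at 48 h (PRR7 and TOC1) and 1 averaged (TOC1, 0.22). The averaged value for LHY was -0.06 in Kyn (95% interval -0.53 to 0.40) and 0.23 in BL (95% interval -0.24 to 0.70). For CCA1 it was 0.04 in Kyn (95% interval -0.58 to 0.66) and 0.44 in BL (95% interval -0.18 to 1.06). ELF4 gave 0.01 in Kyn (95% interval -0.16 to 0.19) and 0.16 in BL (95% interval -0.02 to 0.34). Differences between BL+Kyn and the single treatments were not tested for these genes.

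**Figure D3:**
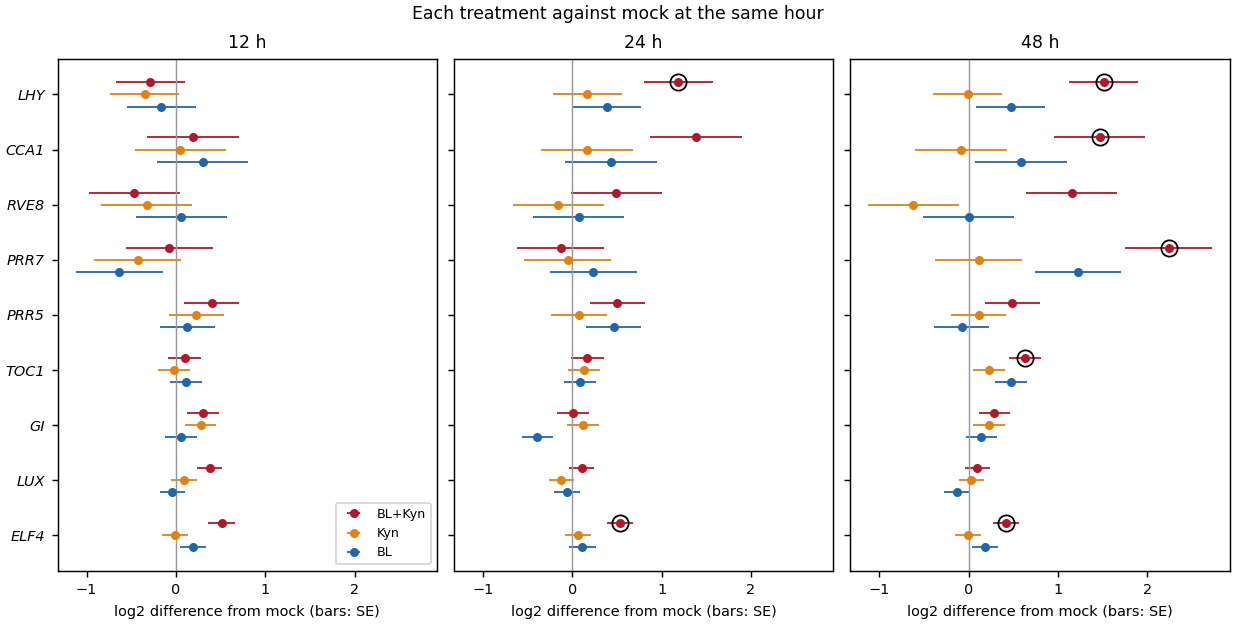
Log2 difference from mock (horizontal axis) of 9 clock genes (rows) in BL+Kyn, Kyn and BL at 12, 24 and 48 h. Bars are standard errors, and circles mark an adjusted p under 0.05. No gene is circled at 12 h, LHY and ELF4 are circled in BL+Kyn at 24 h, and LHY, CCA1, PRR7, TOC1 and ELF4 at 48 h, with PRR7 the widest at 2.24.

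Other genes of the clock and its outputs were counted by list, against the 36.3% of all genes called in BL+Kyn averaged and the 8.18% called for harvest time. Both shares count rises and falls together, and no list was tested as a set. Of 10 tested RVE and LNK genes (11 listed), relatives of RVE8 and the coactivators it recruits, 4 rose and 0 fell in BL+Kyn averaged over harvests. Their median was 0.50, and the number called was near the share of all genes. LNK2, a coactivator of RVE8, ran from 137 to 456 in BL+Kyn and from 108 to 151 in mock and rose by 0.90 (SE 0.19, limma adjusted p = 0.00115). RVE2 (0.63), RVE4 (0.63) and RVE5 (0.37), MYB factors of the same family, rose as well. RVE7 fell by 0.42 with harvest time averaged over treatments (limma adjusted p = 0.0473), and this call ended without both green-tissue libraries (adjusted p = 0.247). Of 14 other clock genes, 3 rose in BL+Kyn and 0 fell, with a median of 0.29, so the number called was under the share of all genes. ELF3, the scaffold of the evening complex, rose by 0.38 (limma adjusted p = 0.0115), ZTL by 0.37 (limma adjusted p = 0.0172) and TIC, a nuclear regulator of the clock, by 0.31 (limma adjusted p = 0.000750). ELF3 fell by 0.30 with harvest time (limma adjusted p = 0.0285), a call that ended without both green-tissue libraries (adjusted p = 0.150).

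Of 13 tested clock output genes (14 listed), 5 rose and 1 fell in BL+Kyn, with a median of 0.37. The 1 that fell was GRP7, a glycine-rich RNA-binding protein under clock control. It had 13166 and 13978 normalized counts in BL+Kyn at 12 h, 14705 and 11729 at 24 h, and 10968 and 14286 at 48 h. Mock libraries held 16238 and 19516, 23835 and 24444, and 20609 and 22676. All BL+Kyn libraries were below all mock libraries. GRP7 fell by 0.69 (SE 0.08, limma adjusted p = 2.71e-06). CDF3, a DOF transcription factor, rose by 1.16 (limma adjusted p = 0.00201), with 121 and 81.8 in BL+Kyn at 48 h, against 25.1 and 26.0 in mock. The catalase gene CAT2 (0.45) and BBX24 (0.37), a B-box factor of light signalling, rose too. With harvest time averaged over treatments BBX24 fell (log2 difference -0.34, SE 0.08, limma adjusted p = 0.0157), a call that ended without both green-tissue libraries. GRP8, the close relative of GRP7, rose by 0.35 with harvest time (SE 0.05, limma adjusted p = 0.000245), a call held by every alternative setting and library left out.

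Of 12 light input genes, 7 rose in BL+Kyn and 0 fell, with a median of 0.25. COP1, a ubiquitin ligase of light signalling, rose by 0.46 (limma adjusted p = 0.000487), the blue light receptor CRY2 by 0.46 (limma adjusted p = 0.00222), SPA1, a partner of COP1, by 0.36 (limma adjusted p = 0.00598) and HY5, a bZIP factor that COP1 degrades, by 0.28 (limma adjusted p = 0.0160). With harvest time, averaged over treatments, 3 of the 12 fell and 0 rose. HY5 ran from 365 to 592 with a median of 474 at 24 and 48 h, against 549 to 768 with a median of 589 at 12 h, and fell by 0.38 (SE 0.06, limma adjusted p = 0.00114). RUP1, which returns the UV-B receptor to its ground state, ran from 207 to 376 with a median of 283 at 24 and 48 h, against 349 to 669 with a median of 412 at 12 h, and fell by 0.62 (SE 0.09, limma adjusted p = 0.000196). Both calls held under every alternative. The third call, of a gene not named here, was a fall of 0.76. It ended in 7 of 34 settings, including that without both green-tissue libraries. Among the averaged BL+Kyn calls named here, those of RVE5, ELF3, ZTL, BBX24 and HY5 ended in 2, 1, 3, 3 and 3 of 34 settings. Calls counted in these lists but not named ended more often, in 6 to 16 of 33 or 34 settings. In Kyn and in BL averaged over harvests none of these 4 lists had a call by limma.

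**Figure D4:**
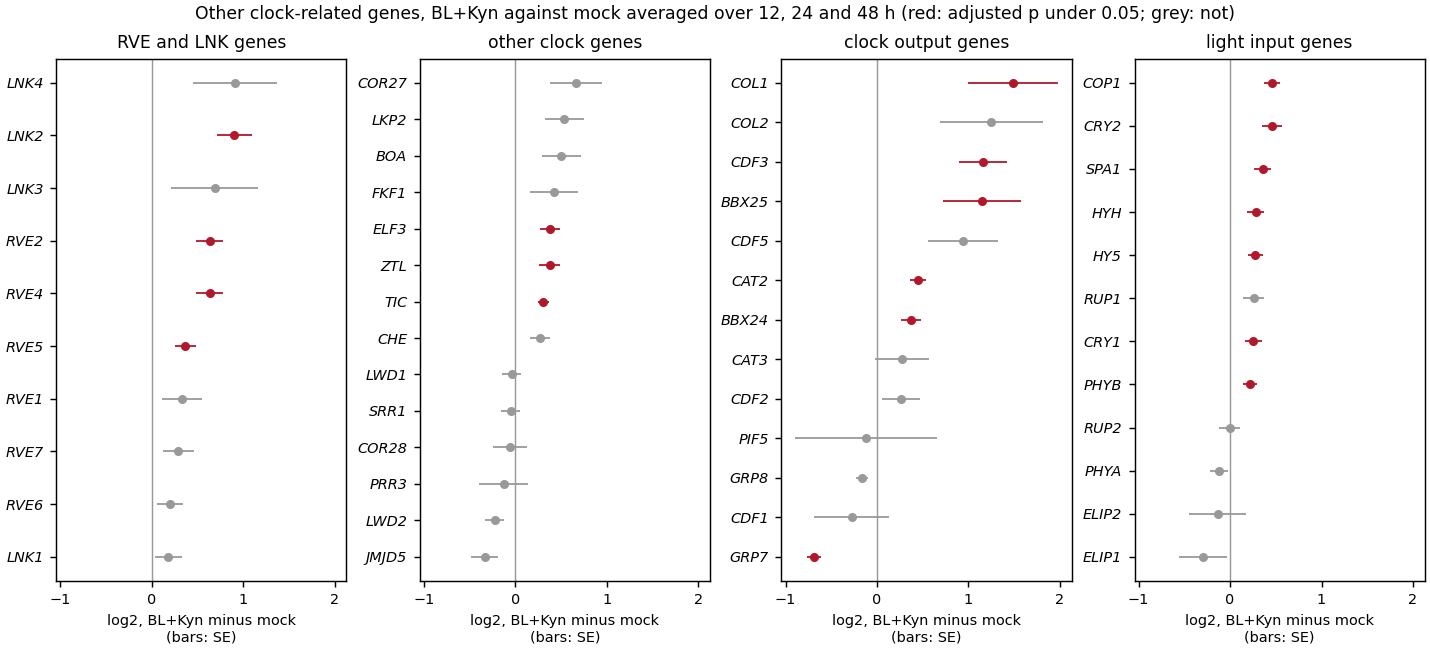
Log2 difference of BL+Kyn from mock, averaged over 12, 24 and 48 h (horizontal axis), for the tested genes of 4 lists (rows). Bars are standard errors, and red marks an adjusted p under 0.05. Called genes lie right of 0, such as LNK2 at 0.90 and CDF3 at 1.16, apart from GRP7 at -0.69.

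Likeness of pattern was described by Pearson's r over the 12 group means of log2(normalized count + 1), among 16094 genes with a mean of at least 20. The points share libraries and depth, and no p is given. Of all these genes LHY was the one most like CCA1 (r = 0.954), while CCA1 ranked 13 for LHY. Closest to LHY among genes with a symbol were GTR2, a glucosinolate transporter (r = 0.976), PGRL1B of cyclic electron flow (0.961) and the kinase MPK3 (0.960). For CCA1 these were MAPR2 (0.951), the receptor kinase BIR1 (0.951) and MPK3 (0.947). PRR7 was closest to PSD3, a phosphatidylserine decarboxylase (0.958), PRR5 to DWA3 (0.963), TOC1 to the transporter ABCG37 (0.921), GI to the ubiquitin protease UBP16 (0.903), LUX to the general factor TFIIB (0.910) and ELF4 to IAA28, an auxin response repressor (0.963). PRR7 had r = 0.656 with LHY, and GI had r = 0.056 with LHY.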

How the data were processed

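CEL-Seq2 libraries of total RNA, which read the 3' end of transcripts and here carry a pool of 3 barcoded primers per RNA, came from 24 root samples. Per the submitters' processing notes, DESeq2 1.18.1, HTSeq 0.6.1 and TopHat2 2.1.0 were used with TAIR10, besides Trim Galore, FastQC 0.11.5 and cutadapt 1.10. Which strand was counted and whether molecular barcodes were collapsed are not given in the sources used here, so overlapping and antisense reads cannot be told apart. The authors deposited a linear signal, the normalized count per library, and a table of log2 fold changes with adjusted p-values against control. Dividing each library's values by a single unit gave whole reads (within 0.1) for 100% of them.

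Values were analysed as log2(normalized count + 1) for genes with a mean of at least 5, with limma 3.58.1 in R 4.3.3 (trend, 12 group means, 12 residual degrees of freedom) and Benjamini-Hochberg adjustment over 18948 genes. A gene is called, rises or falls where the adjusted p is under 0.05. The script was tested on simulated data. The p-values measure the spread between the deposited libraries. Alternatives were pseudocounts of 0.5 and 5, a minimum mean of 20 or none, TMM scaling, edgeR 4.0.16 and DESeq2 1.42.0 on the recovered reads, a replicate block, fits within a treatment, and libraries left out. The clock genes and the lists were chosen with earlier results of these data known. Other listed genes were named, up to 5 per list by smallest p, where called for harvest time or for a treatment on average, and for each clock gene the most alike genes by r. Root markers called in BL+Kyn were named after their values were seen. Promoters were read from RefSeq TAIR10.1. Of matched loci, 99.97% overlapped the deposited TAIR10 positions on the same chromosome, and 55.7% had at least 1 identical end. Gene starts can therefore differ between the annotations. The promoter of 1 clock gene is not reported here. Python 3.11.15, pandas 2.3.3 and matplotlib 3.10.9 were used.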

Additional observations from a re-analysis of the deposited data

How the results depend on the processing

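Under 34 or 35 alternatives for each of 14 clock gene calls there were 477 values, of which 398 kept their direction and call, 79 lost the call and 0 changed sign. Calls never lost were PRR7 in BL+Kyn at 48 h and LHY, CCA1 and ELF4 in BL+Kyn averaged. Those lost most often, in 19 of 34 settings each, were ELF4 in BL+Kyn at 48 h and PRR5 averaged. In 148 uncalled clock gene values, 173 of 5045 alternatives changed sign and 23 gained a call.

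The count of clock genes called for harvest time averaged over treatments was 2 without both green-tissue libraries (LHY joined ELF4) and also when BL+Kyn 48 h replicate 1 was left out with them, a setting chosen after seeing the data. In BL+Kyn it was 0 with the libraries of that treatment only. For BL+Kyn against mock it was 1 at 12 h with a minimum mean of 20, with edgeR, with DESeq2, with the replicate block and in the added setting, 1 at 24 h with no filter and 3 with the block, without both green-tissue libraries or in the added setting, and at 48 h 3 with no filter and 1 in the added setting. Averaged over harvests it was 4 with no filter, TMM scaling, edgeR, DESeq2, the block or the added setting, and at 48 h 4 with TMM scaling, edgeR or without both green-tissue libraries. Leaving out 1 library at a time gave 0 to 1 for harvest time averaged, 0 to 1 in BL+Kyn, and for BL+Kyn against mock 0 to 1 at 12 h, 0 to 3 at 24 h, 1 to 5 at 48 h and 3 to 6 averaged. In the remaining comparisons the count of clock genes was 0 under all alternatives. Equal counts need not hold the same genes. In the added setting LUX gained a call in BL+Kyn averaged over harvests, and TOC1 lost its own. LUX also gained this call without BL+Kyn 48 h replicate 1, and PRR7 gained it in some fits with 1 library left out.

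Same-numbered libraries deviated with correlations of -0.121 to 0.530 (median 0.028) over 66 pairs of groups, and 9 were over 0.1. Since the labels do not say what a number shares and not every correlation was over 0.1, numbers were not treated as pairs, although 18 of 24 libraries correlated best with one of their own number, a hint from the data, not the design. With the replicate block, PRR5 averaged had an adjusted p of 0.0513, and ELF4 at 12 h and CCA1 at 24 h gained a call (0.0436 and 0.0496).

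Counts over all genes moved by over 1.5 times in some settings. For harvest time, the count averaged over treatments was 1549 and was 998 without both green-tissue libraries. In BL+Kyn it was 832, and 165 with that treatment's libraries only. In Kyn it was 29, against 45 with TMM scaling, 53 with edgeR, 261 with DESeq2, 57 with the block, 2 without both green-tissue libraries and 61 with that treatment only. In BL it was 16, against 7 with a pseudocount of 5, 112 with DESeq2, 45 with the block, 4 without both green-tissue libraries and 1 with that treatment only. In mock it was 76, against 47 with no filter, 337 with DESeq2, 125 with the block, 34 without both green-tissue libraries and 957 with that treatment only. For 48 h against 24 h it was 227, against 147 with no filter, 459 with DESeq2 and 341 with the block. For treatment by time it was 40, against 17 with no filter, 305 with DESeq2, 110 with the block and 19 without both green-tissue libraries. Kyn against mock had 243 at 12 h (388 with DESeq2, 131 without both green-tissue libraries) and 165 at 24 h (107 with no filter, 271 with DESeq2). BL against mock had 18 at 12 h (33 with no filter, 54 with DESeq2, 0 without both green-tissue libraries), 20 at 24 h (97 with DESeq2, 37 with the block) and 41 at 48 h (110 with DESeq2). The cause was not tested. With 1 library left out, the counts for harvest time were 3 to 281 in Kyn, 2 to 61 in BL and 0 to 677 in mock, 138 to 820 for 48 h against 24 h and 1 to 478 for treatment by time. Against mock at 12, 24 and 48 h they were 104 to 372, 19 to 292 and 77 to 348 in Kyn and 0 to 54, 0 to 96 and 0 to 109 in BL, which had 210 to 581 averaged (357 with every library).

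TMM moved the median of all genes by at most 0.022. Depth limits RVE8 and CCA1, whose libraries held as few as 3 and 11 reads.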
